A study of Mus musculus with 9 samples.

Results

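The immediate early genes described here are 10 genes, Fos, Fosb, Jun, Junb, Egr1, Atf3, Ier2, Ier3, Nr4a1 and Dusp1, chosen by name from the 54532 genes of the count table. No filter on their values was used, but earlier results of these data were known when they were chosen. All 10 were matched by Ensembl identifier, and all 10 had enough counts to be tested in every comparison. RNA came from the tibialis anterior muscle of C57/BL6J mice after injury with barium chloride (BaCl2), a salt that kills muscle fibres and starts regeneration, and all 3 groups carried this injury. Young mice of 4 months received PBS, old mice of 24 months received PBS, and old mice of 24 months received recombinant METRNL (rMETRNL), a secreted protein, each as 3 injections, and each group held 3 libraries. The methods of the study give ages of 3 to 4 months for young and 24 to 26 months for old mice. The amount of rMETRNL is written as 0.1 ug in one place and 0.1 ng in another. The sex of the mice and whether a library held 1 animal or a pool are not given in the sources used here, so p-values measure the spread between these libraries.

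The libraries are described in 2 ways. The sample labels give muscle that was minced, digested, strained and washed into a suspension of cells, and the text of the series gives day 4 after injury. The study describes RNA from whole muscle, homogenised in Trizol with beads per its methods, and its results text gives day 8. Immediate early genes bear on this difference because their transcription starts within minutes of a stimulus from factors already present in the cell, without new protein being made, and because warm enzymatic digestion of tissue is itself a known stimulus for them. Their transcripts are short-lived, so a level reflects the last minutes to hours before the RNA was fixed. In muscle they are also known to respond to contraction, to injury and to the activation of satellite cells, the stem cells of the tissue. No library of a known other preparation was analysed here, so what handling added to the levels below was not tested.

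The 9 libraries held between 16238700 and 22522560 counts. Levels are given as CPM, a gene's counts per 1000000 counts of the library after scaling by edgeR's TMM factors, and the 10 genes had between 22 and 3000 counts per library. The 3 old PBS libraries stood apart from the other 6 and from each other. Mobp, a myelin gene, and Snap25, a synapse gene, were at 0 counts in all 6 other libraries, whereas Mobp measured 31.1, 11.5 and 41.7 CPM in old PBS 2, 3 and 4. Of the 12 brain markers, none was at 0 throughout old PBS, and the summed level ran from 249 to 416 CPM there, 237 to 317 CPM in young PBS and 215 to 286 CPM in old rMETRNL, most of it Camk2a. Of the 10 liver markers, 6 were at 0 throughout young PBS, 4 throughout old rMETRNL and 0 throughout old PBS. Their summed level ran from 55.3 to 134 CPM in old PBS, 14.7 to 63.9 CPM in young PBS and 28.6 to 109 CPM in old rMETRNL. Most of it was Hp in young PBS and old rMETRNL. Alb measured 63.3, 22.3 and 1.57 CPM in old PBS 2, 3 and 4, and 0.161 CPM or less in the 6 other libraries. Old PBS 4 had the highest mitochondrial share of counts, 12.8% against 5.69 to 10.96% elsewhere. Old PBS 3 had the highest summed level of the 6 new fibre markers, 3705 CPM against 333 to 1479 CPM elsewhere, and the lowest summed level of the 16 mature fibre markers. The part of these differences in the results below was not tested, and results are given with and without old PBS 3 and old PBS 4 where these decide them.

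Jun was the most abundant of the 10 genes per length and Fosb the least. Divided by exon length, the mean level over 9 libraries was 28.4 CPM per kilobase for Jun, 22.8 for Nr4a1, 18.3 for Dusp1, 15.4 for Junb and 10.2 for Ier2. It was 7.80 CPM per kilobase for Fos, 7.15 for Atf3, 6.43 for Egr1, 6.02 for Ier3 and 0.524 for Fosb. Neighbours in this order overlapped in their ranges over the libraries except Ier3 and Fosb, whose means differed by a ratio of 11.5. Nr4a1 exceeded Dusp1, and Junb exceeded Ier2, within each of the 9 libraries. Fos exceeded Atf3 in 5 of 9, and Egr1 exceeded Ier3 in 5 of 9, so their order was not fixed. On the same scale Jun stood at the 92.0 percentile of 16037 genes kept, Fos at the 72.8 percentile and Fosb at the 15.8 percentile.

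**Figure D1:**
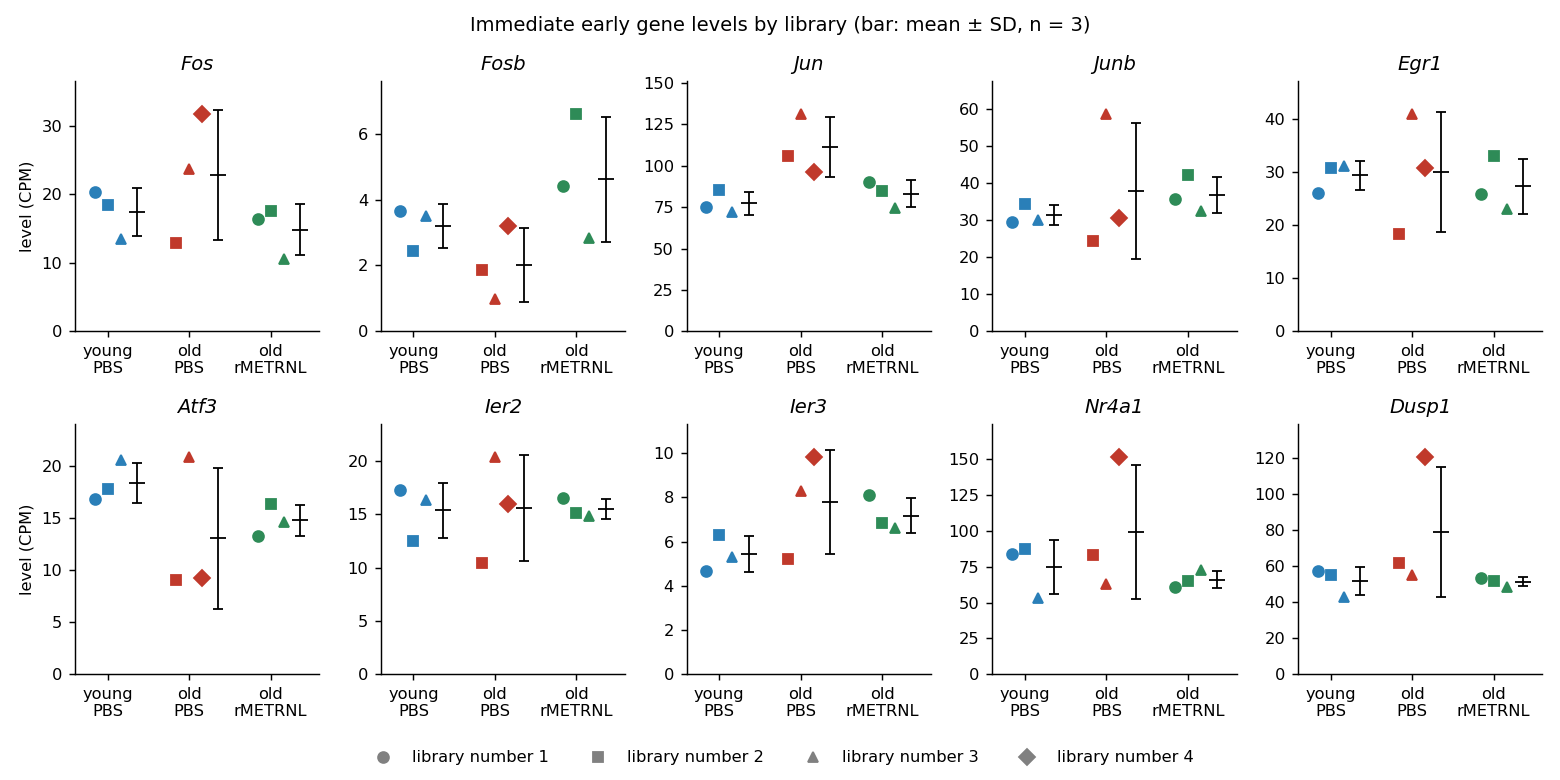
Level of each gene in CPM (vertical axis, from 0) in the 9 libraries by group, with the mean ± SD of the 3 libraries of a group as a bar. The old PBS libraries spread more widely than the other groups for most genes, and Jun is the gene whose old PBS libraries all lie above those of both other groups.

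Fos, Fosb, Jun and Junb encode some of the subunits of the transcription factor AP-1, in which a Fos protein can pair with a Jun protein. Fos measured 20.4, 18.4 and 13.5 CPM in young PBS 1, 2 and 3, 12.9, 23.7 and 31.8 CPM in old PBS 2, 3 and 4, and 16.3, 17.5 and 10.6 CPM in old rMETRNL 1, 2 and 3. Old PBS thus held the highest value as well as one below every young PBS library, and the groups overlapped. Fosb was the lowest gene, at 3.65, 2.44 and 3.51 CPM in young PBS, 1.86, 0.965 and 3.20 CPM in old PBS and 4.40, 6.61 and 2.82 CPM in old rMETRNL. Its lowest library was old PBS 3, with 22 counts, whereas Fos was above all 6 other libraries in the same library.

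Jun measured 74.8, 85.3 and 72.0 CPM in young PBS, 105.8, 131.6 and 96.3 CPM in old PBS and 90.5, 84.5 and 74.8 CPM in old rMETRNL. All 3 old PBS libraries lay above the other 6, and old PBS 3 was the highest. The exons of Jun share 232 bases with those of Junos, an antisense transcript with 68 to 215 counts per library, and the strand setting of the counting is not given in the sources used here. Junb measured 29.6, 34.5 and 30.2 CPM in young PBS, 24.4, 58.8 and 30.5 CPM in old PBS and 35.7, 42.2 and 32.5 CPM in old rMETRNL. Old PBS thus held both the lowest and the highest Junb library of the 9. Junb shares 173 exonic bases with Prdx2 on the other strand, which had 2021 to 3637 counts.

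Promoter sequences are shown for the genes furthest above the other groups in old PBS 3 (Junb and Jun) and in old PBS 4 (Dusp1, Nr4a1 and Fos). These sequences were thus picked by the values of their genes, and a link between motif and library was not tested. They are RefSeq windows of GRCm38.p6 that end just before the transcription start, written 5′ to 3′ along the gene. For Fos (chr12:85473640-85473889, plus strand) and Junb (chr8:84978749-84978998, minus strand), capitals mark TGACG, the core of the cAMP response element (CRE) that CREB and ATF proteins bind, searched as TGACG or CGTCA so that both strands are covered. For Jun (chr4:95052223-95052472, minus strand), capitals mark a MEF2 site, the motif of a factor family named for its role in muscle.
Fos: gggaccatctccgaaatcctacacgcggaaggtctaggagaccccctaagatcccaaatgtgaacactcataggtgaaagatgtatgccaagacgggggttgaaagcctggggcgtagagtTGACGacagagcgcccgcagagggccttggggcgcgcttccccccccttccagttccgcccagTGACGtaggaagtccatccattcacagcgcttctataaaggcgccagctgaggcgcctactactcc
Junb: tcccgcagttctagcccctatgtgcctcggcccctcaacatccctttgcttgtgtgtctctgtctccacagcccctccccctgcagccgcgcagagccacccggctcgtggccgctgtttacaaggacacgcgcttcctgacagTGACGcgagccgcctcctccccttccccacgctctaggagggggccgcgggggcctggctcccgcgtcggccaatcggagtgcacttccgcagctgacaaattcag
Jun: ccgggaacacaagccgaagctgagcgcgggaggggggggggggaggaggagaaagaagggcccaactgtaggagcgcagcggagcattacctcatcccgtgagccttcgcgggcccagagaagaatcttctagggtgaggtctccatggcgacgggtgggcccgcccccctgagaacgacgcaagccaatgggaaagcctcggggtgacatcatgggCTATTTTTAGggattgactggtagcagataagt
The Fos window held 2 copies of the CRE core, with their last bases at -125 and -62 from the start, the Junb window 1 copy and the Jun window 0. The CRE core stood in 6 of the 8 windows of the group, namely those of Fos, Fosb, Junb, Atf3, Nr4a1 and Dusp1, and in 17.8% of 32851 mouse promoter windows of 250 bases. The Atf3 copy, at -7 to -3, lies in the last 7 bases of its window, which the annotation places in an exon. The annotation also places exons in the last bases of the Fosb, Ier3 and Dusp1 windows. All windows were not matched for GC content, which ran from 54.4 to 74.4% in the 8. A MEF2 site stood in the windows of Jun and Atf3 and in 2.92% of all windows. TGAGTCA, the AP-1 site, was in 0 of the 8 and 4.46% of all windows, and the CArG box, the motif of SRF, in 0 of the 8 and 1.47%. Egr1 and Ier2 had no window in the table used here. Only these patterns within 250 bases of the start were searched, so sites further upstream or with other letters were not counted. The windows of Atf3 and Fosb, which hold the CRE core, are not shown. In old PBS 4 these genes stood at 0.559 and 0.818 times the mean of the 6 libraries of the other groups. The matches describe letters in a window and say nothing of binding in these libraries.

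Egr1 is a zinc finger transcription factor and Atf3 a stress-induced repressor of the ATF and CREB family. Egr1 measured 26.1, 30.6 and 31.2 CPM in young PBS, 18.4, 40.9 and 30.6 CPM in old PBS and 25.8, 32.9 and 22.9 CPM in old rMETRNL. Atf3 measured 16.9, 17.8 and 20.5 CPM in young PBS, 9.08, 20.9 and 9.27 CPM in old PBS and 13.3, 16.3 and 14.7 CPM in old rMETRNL. For both genes old PBS 2 was the lowest and old PBS 3 the highest of all 9 libraries. Old PBS 2 and old PBS 4 agreed closely for Atf3, and both lay below every library of the other groups.

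Ier2 and Ier3 are immediate early genes whose products act in growth and survival responses. Ier2 measured 17.3, 12.5 and 16.3 CPM in young PBS, 10.4, 20.4 and 15.98 CPM in old PBS and 16.5, 15.1 and 14.9 CPM in old rMETRNL. The group means of Ier2 were 15.4 ± 2.56, 15.6 ± 5.005 and 15.5 ± 0.895 CPM (SD, n = 3 each), so that the groups differed in spread far more than in mean. Ier3 measured 4.69, 6.33 and 5.32 CPM in young PBS, 5.23, 8.29 and 9.84 CPM in old PBS and 8.10, 6.84 and 6.60 CPM in old rMETRNL. Every old rMETRNL library lay above every young PBS library for Ier3, while old PBS overlapped both.

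Nr4a1, an orphan nuclear receptor, and Dusp1, a phosphatase that switches off MAP kinases, were both highest in a single library, old PBS 4. Nr4a1 measured 83.8, 87.1 and 53.0 CPM in young PBS, 83.0, 63.1 and 151 CPM in old PBS and 60.6, 64.9 and 72.5 CPM in old rMETRNL. Dusp1 measured 57.001, 55.1 and 43.0 CPM in young PBS, 61.6, 54.9 and 120 CPM in old PBS and 53.6, 51.7 and 48.6 CPM in old rMETRNL. Old PBS 4 was the highest library for both, while old PBS 3, the highest for Junb, was the lowest old PBS library for both. Counted on both strands, their windows hold 4 copies of the CRE core for Nr4a1 (chr15:101266596-101266845, plus strand) and 3 for Dusp1 (chr17:26508520-26508722, minus strand), again in capitals.
Nr4a1: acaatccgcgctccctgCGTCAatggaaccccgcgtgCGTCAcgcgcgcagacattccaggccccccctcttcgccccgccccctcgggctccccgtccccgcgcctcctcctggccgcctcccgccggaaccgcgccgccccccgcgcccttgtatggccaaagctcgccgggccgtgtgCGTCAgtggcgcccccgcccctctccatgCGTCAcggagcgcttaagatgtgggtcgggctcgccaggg
Dusp1: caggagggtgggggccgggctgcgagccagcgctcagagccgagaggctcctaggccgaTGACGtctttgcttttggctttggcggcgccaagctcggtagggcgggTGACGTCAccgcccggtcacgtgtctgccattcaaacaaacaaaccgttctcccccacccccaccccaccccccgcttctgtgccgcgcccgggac
Of the 3 cores of Dusp1, 2 are 1 site read on both strands, TGACGTCA, the full palindromic CRE. This full CRE stood in 1 of the 8 windows and in 1.55% of all windows. The last bases of the Dusp1 window are left out because the annotation places an exon there. Dusp1 also shares 11 exonic bases with Ergic1 on the other strand.

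The old PBS libraries split the 10 genes by library. Old PBS 3 was the highest of the 9 libraries for Jun, Junb, Egr1, Atf3 and Ier2, and old PBS 4 was the highest for Fos, Ier3, Nr4a1 and Dusp1. Old PBS 2 was the lowest of the 9 for Junb, Egr1, Atf3 and Ier2, and old PBS 3 the lowest for Fosb. Against the mean of the 6 libraries of the other groups, old PBS 4 was 2.34 times as high for Dusp1, 2.15 times for Nr4a1 and 1.97 times for Fos. By the same measure old PBS 3 was 1.72 times as high for Junb and 1.64 times for Jun. Old PBS 4 was also the library with the highest summed red cell markers, 978 CPM against 51.9 to 844 CPM elsewhere, the highest mature fibre sum, 185624 CPM, and the lowest new fibre sum. The part of these in the levels of the 10 genes was not tested.

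**Figure D2:**
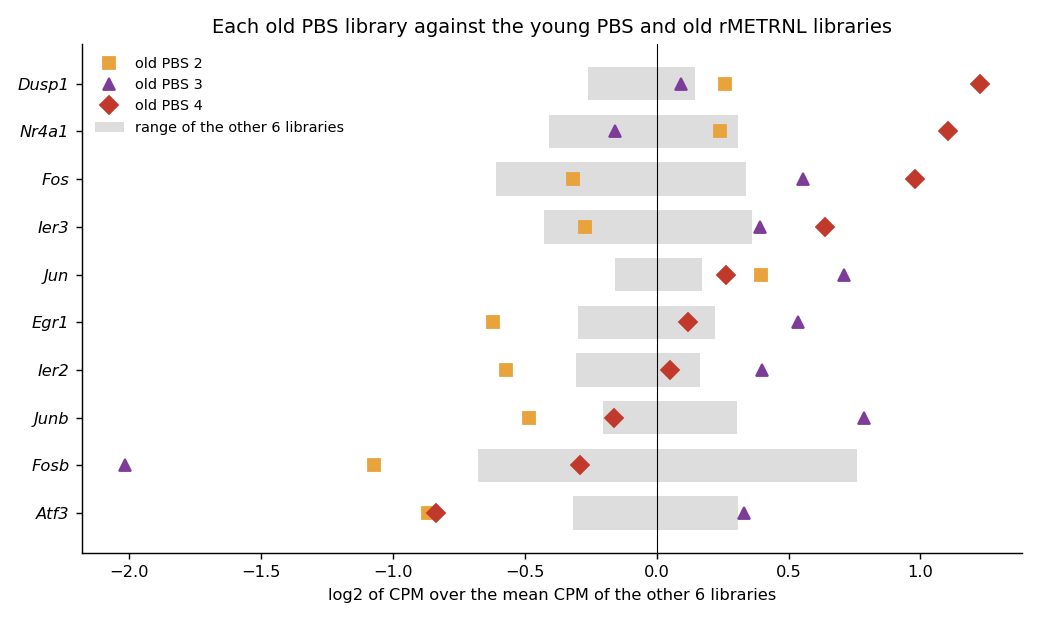
Each old PBS library against the mean of the other 6 libraries, as the log2 of the ratio of CPM (horizontal axis), with the range of the other 6 libraries as a grey band. Old PBS 4 lies above the band for Dusp1, Nr4a1, Fos, Ier3 and Jun, and old PBS 3 above it for Jun, Junb, Fos, Egr1, Ier2, Ier3 and Atf3.

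Spread within groups followed the same division. The SD of log2 CPM within old PBS had a median of 0.628 over the 10 genes, beside 0.364 over all 16037 genes kept. In young PBS these medians were 0.217 and 0.204, and in old rMETRNL 0.151 and 0.180. Fosb varied most in old PBS, with an SD of 0.81 (the 88.1 percentile of genes), and Jun least, with an SD of 0.23 (the 27.3 percentile). Summed over the 10 genes, the level was 324 ± 31.9 CPM in young PBS, 418 ± 83.5 CPM in old PBS and 321 ± 19.1 CPM in old rMETRNL (SD, n = 3 each). Old PBS 2, at 333 CPM, lay within the range of the other groups, and old PBS 3 and 4, at 424 and 499 CPM, lay above it. The mean of log2 CPM over the 10 genes, which weighs each gene alike, was 4.44 ± 0.063, 4.53 ± 0.33 and 4.48 ± 0.16 in the same order, so that the groups lay within the spread of old PBS.

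Between old PBS and young PBS, which asks how age changed the injured muscle, 0 of the 10 genes passed an adjusted p of 0.05 in edgeR's quasi-likelihood test, beside 0.0643% of 15560 genes tested. DESeq2 also called 0 of the 10, beside 1.41% of genes. An unadjusted p under 0.05 was found by edgeR for 1 of the 10, Jun, beside 5.91% of genes, and by DESeq2 for 2, Jun and Dusp1, beside 4.52% of genes. The mean of Jun was 111.2 ± 18.2 CPM in old PBS and 77.4 ± 6.98 CPM in young PBS (SD, n = 3 each), a log2 fold change of 0.53 ± 0.18 (SE, adjusted p = 0.635 by edgeR). Jun was also the only member whose groups did not overlap, which held for 5.06% of genes in this direction, and 0 of the 10 were lower without overlap, beside 5.49% of genes. The log2 fold change was 0.62 ± 0.30 for Dusp1, 0.52 ± 0.27 for Ier3, 0.42 ± 0.33 for Nr4a1 and 0.39 ± 0.31 for Fos (SE). It was -0.68 ± 0.45 for Fosb and -0.48 ± 0.32 for Atf3, with adjusted p from 0.899 to 0.994 over these 6 genes. It was 0.28 ± 0.30 for Junb, 0.04 ± 0.26 for Egr1 and 0.03 ± 0.26 for Ier2 (SE). In all, 8 of 10 were positive with a median of 0.34, beside 52.1% positive and a median of 0.01 over all genes. In RNA of a whole sample, fewer cells of a type and less RNA per cell cannot be told apart.

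Single old PBS libraries decided several of these differences. Without old PBS 4 the log2 fold change of Nr4a1 was -0.02, that of Fos 0.08 and that of Dusp1 0.18. Without old PBS 3 it was 0.66 for Nr4a1 and 0.82 for Dusp1, while Junb, Egr1 and Ier2 turned to -0.19, -0.25 and -0.21. In the same fit Atf3 reached -0.99 with an adjusted p of 0.0372 by edgeR, within a range of 0.0372 to 0.9999 over its 12 alternatives. It was the 1 of the 10 called there, beside 2.52% of all genes, against 0.0643% with all libraries. For Fosb the log2 fold change was -0.33 without old PBS 3 and -1.19 without old PBS 4, and for Ier3 it was 0.33 without old PBS 4. For Jun the log2 fold change was 0.40 without old PBS 3 and 0.63 without old PBS 4.

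Between old rMETRNL and old PBS, which asks what the protein changed in old muscle, 0 of the 10 were called by edgeR, beside 0.108% of 15682 genes, and 0 by DESeq2, beside 1.84% of genes. An unadjusted p under 0.05 was found by edgeR for 2 of the 10, Fosb and Jun, beside 8.07% of genes, and by DESeq2 for 4, Fosb, Jun, Dusp1 and Nr4a1, beside 6.03% of genes. Fosb rested on the lowest counts, with means of 4.61 ± 1.90 CPM in old rMETRNL and 2.01 ± 1.12 CPM in old PBS (SD, n = 3 each) and a log2 fold change of 1.20 ± 0.48 (SE, adjusted p = 0.564 by edgeR). For Jun it was -0.43 ± 0.18 (SE, adjusted p = 0.594 by edgeR). Jun and Dusp1 were lower in old rMETRNL without overlap, which held for 5.38% of genes in this direction, and 0 of the 10 were higher without overlap, beside 7.19% of genes. The log2 fold change of Dusp1 was -0.64 ± 0.28, that of Fos -0.64 ± 0.32 and that of Nr4a1 -0.60 ± 0.30 (SE). Junb, Egr1, Atf3, Ier2 and Ier3 lay between -0.15 and 0.16. The median over the 10 genes was -0.14, beside -0.01 over all genes. Without old PBS 3, Nr4a1 reached -0.84 with an adjusted p of 0.0440 by edgeR (0.0440 to 0.9999 over its 12 alternatives). It was the 1 of the 10 called there, beside 9.76% of all genes, a share close to that of the 10 genes, whereas Junb, Egr1 and Ier2 turned to 0.41, 0.13 and 0.22. Without old PBS 4 the log2 fold change was -0.17 for Nr4a1, -0.21 for Dusp1 and -0.34 for Fos, and -0.54 for Jun.

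Old rMETRNL and young PBS differed least. EdgeR called 0 of 15396 genes, a share of 0%, and so 0 of the 10, as did DESeq2. An unadjusted p under 0.05 was found by DESeq2 for 0 of the 10, beside 1.26% of genes, and by edgeR for 1, Atf3, beside 2.41% of genes, with a log2 fold change of -0.32 ± 0.14 (SE, adjusted p = 0.9996 by edgeR). Atf3 was lower without overlap, as were 2.88% of genes, and Ier3 higher without overlap, as were 3.91% of genes, at 0.40 ± 0.19 (SE). Fosb was at 0.52 ± 0.32, which fell to 0.17 without old rMETRNL 2, and the other 7 lay between -0.24 and 0.23. The 3 comparisons share their groups, so a high old PBS library enters the 2 that use old PBS in opposite directions. Old PBS 3 and old PBS 4 do not enter the comparison of old rMETRNL with young PBS.

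**Figure D3:**
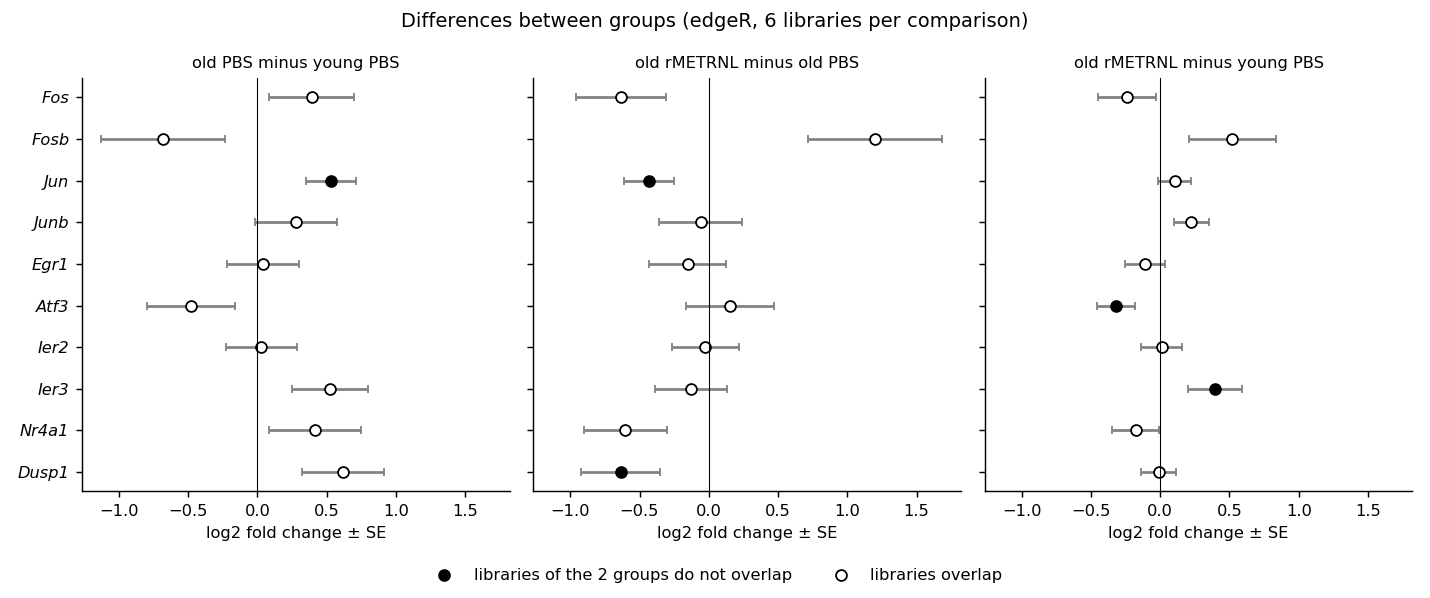
Log2 fold change ± SE (horizontal axis) of each gene in the 3 comparisons by edgeR, 6 libraries each, with filled points where the libraries of the 2 groups do not overlap. Jun is filled in both comparisons with old PBS, on opposite sides of 0, and none of the 10 genes passed an adjusted p of 0.05 in any panel.

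Of 42 other immediate early genes, 41 were tested in each comparison and 0 were called by edgeR. DESeq2 called 1 of the list higher in old PBS than in young PBS, beside 1.41% of all genes called. It called 2 lower in old rMETRNL than in old PBS, beside 1.84% of all genes called. By edgeR an unadjusted p under 0.05 was found for 5 higher and 1 lower between old PBS and young PBS, beside 3.5% and 2.42% of all genes. It was found for 0 higher and 6 lower between old rMETRNL and old PBS, beside 3.51% and 4.57%, and for 3 higher and 2 lower between old rMETRNL and young PBS, beside 1.38% and 1.03%. The 5 higher in old PBS were Per1, Ccn1, Klf10, Sik1 and Tiparp, the last 3 named after their values were seen, and the lower gene was Egr3. With rMETRNL against young PBS, Klf6, Klf10 and Dusp6 were the 3 higher and Nr4a3 and Dusp2 the 2 lower, of which Dusp6 was named after its values were seen. Per1, a clock gene that glucocorticoids and cAMP induce rapidly, measured 39.1, 40.2 and 27.0 CPM in young PBS, 54.5, 63.7 and 82.4 CPM in old PBS and 24.7, 31.2 and 36.2 CPM in old rMETRNL. All old PBS libraries of Per1 lay above the other 6. Of all genes, 5.06% were higher in old PBS than in young PBS without overlap, and 5.38% lower in old rMETRNL than in old PBS. The log2 fold change of Per1 was 0.92 ± 0.22 against young PBS (SE, adjusted p = 0.242 by edgeR and 0.0225 by DESeq2). With rMETRNL against old PBS it was -1.14 ± 0.21 (SE, adjusted p = 0.0962 by edgeR and 0.000554 by DESeq2).

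Ccn1, a secreted matrix protein induced through SRF and YAP, followed the same order. It measured 29.6, 27.2 and 29.5 CPM in young PBS, 36.4, 59.5 and 47.9 CPM in old PBS and 20.9, 29.5 and 27.6 CPM in old rMETRNL. Its log2 fold change was 0.74 ± 0.19 against young PBS (SE, adjusted p = 0.321 by edgeR and 0.0862 by DESeq2) and -0.90 ± 0.21 with rMETRNL against old PBS (SE, adjusted p = 0.208 by edgeR and 0.0224 by DESeq2). The most abundant genes of this list, Mcl1, Rhob and Klf6, ranged over the 9 libraries from 202 to 244 CPM, 65.3 to 101 CPM and 61.1 to 82.4 CPM. Over the 41 genes the median log2 fold change was 0.03 and -0.03 in the comparisons with old PBS, close to the 0.01 and -0.01 of all genes.

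The 20 factors and kinases that act upstream of these genes, such as SRF, CREB and the ERK and p38 kinases, were all tested and 0 were called by edgeR or DESeq2. An unadjusted p under 0.05 was found for 1 gene, Elk3, an SRF partner, which was lower in old PBS against young PBS (-0.43 ± 0.18, SE, adjusted p = 0.835 by edgeR) and higher with rMETRNL than in old PBS (0.57 ± 0.19, SE, adjusted p = 0.459 by edgeR). Of all genes, 2.42% were lower and 3.51% higher by this measure in the same 2 comparisons. Among 12 genes of the early inflammatory response, 10 were tested in each comparison and 0 were called by either tool. An unadjusted p under 0.05 was found for 2 lower between old PBS and young PBS, Ccl2 and Ccl3, beside 2.42% of all genes. It was found for 3 higher between old rMETRNL and old PBS, Ccl2, Ccl3 and Tnfaip3, beside 3.51%. Ccl2, the chemokine that draws monocytes, averaged 2.37 CPM in old PBS, 4.94 CPM in young PBS and 4.93 CPM in old rMETRNL. Macrophage markers, whose cells can be a source of Ccl2, summed to 1235 to 1833 CPM in old PBS, 1769 to 2046 CPM in young PBS and 1898 to 2192 CPM in old rMETRNL, and their part was not tested.

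Heat shock and other handling genes gave a mixed picture. Of 16 such genes 15 were tested and 0 were called by edgeR, with 1 unadjusted p under 0.05 in each comparison, Hmox1 in both that use old PBS and Dnajb1, at 0.35 ± 0.14 (SE), between old rMETRNL and young PBS. Of all genes, 5.91% had such a p between old PBS and young PBS, 8.07% between old rMETRNL and old PBS, and 2.41% between old rMETRNL and young PBS. Hspa1b, an inducible HSP70 gene that responds rapidly to heat, stayed at 2.58 to 4.38 CPM over the 9 libraries. Hspa8, its constitutive relative, measured 816 to 1086 CPM, and Hsp90ab1 847 to 1215 CPM. Hspa1b shares near-identical sequence with its copy Hspa1a, so that its counts are uncertain. Hmox1, the haem-degrading enzyme, measured 47.0, 34.1 and 46.8 CPM in young PBS, 22.6, 24.6 and 22.9 CPM in old PBS and 62.3, 44.3 and 38.7 CPM in old rMETRNL. All old PBS libraries of Hmox1 lay below the other 6 and within a narrow range. Its log2 fold change was -0.86 ± 0.17 against young PBS (SE, adjusted p = 0.146 by edgeR and 0.0114 by DESeq2) and 1.04 ± 0.20 with rMETRNL against old PBS (SE, adjusted p = 0.106 by edgeR and 0.00255 by DESeq2).

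Most mature fibre markers were high in every library. Tnnc2 and Myh7, named after their values were seen, were low, at 1.26 to 2.94 CPM and 0.792 to 35.1 CPM over the libraries. Mature fibres are long multinucleate cells, and how much of their RNA a strained digest would hold was not tested. The 16 mature fibre markers took between 12.7 and 16.2% of all counts, and the 10 immediate early genes together between 0.0293 and 0.0491%. Per exon length, the median fibre marker exceeded the median immediate early gene by a factor of 168 in old PBS 3 to 447 in old PBS 2. Acta1, the actin of skeletal fibres, exceeded Fos per exon length by a factor of 1280 to 3565. Fos itself took between 0.00103 and 0.00275% of counts. Markers of other cells of the tissue were also present, with 0 markers at 0 throughout a group among the satellite cell, fibro-adipogenic, macrophage and endothelial lists. These values are a description of the libraries, and the 2 accounts of how they were prepared were not tested against each other.

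**Figure D4:**
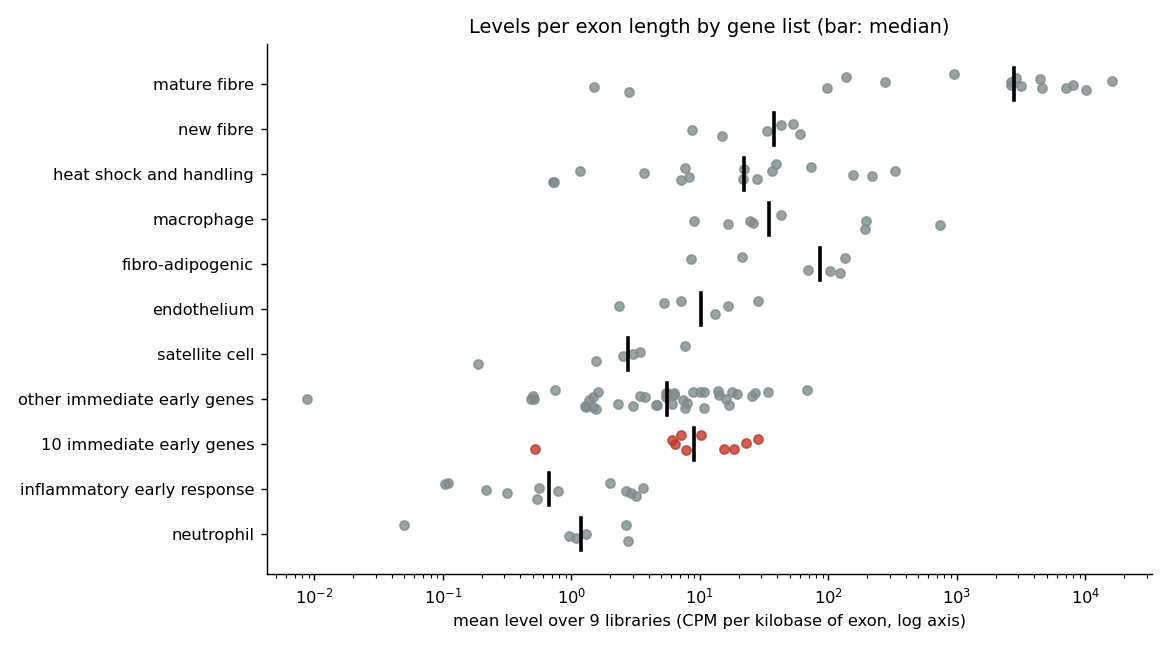
Mean level over 9 libraries of each gene by list, in CPM per kilobase of exon on a log axis (horizontal), with a bar at the median of a list. The 10 immediate early genes (red) lie between 0.524 and 28.4, below most mature fibre markers, whose median is 2778.

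The genes most like the group in pattern were sought by Pearson correlation with the mean log2 CPM of the 10 genes over the 9 libraries, among 10821 genes with a mean of at least 5 CPM. The 8 highest were Id1 (r = 0.97), an inhibitor of basic helix-loop-helix factors, Mkrn1 (0.93), Dhrs3 (0.93), Tmem259 (0.92), Mrgbp (0.92), Zbtb22 (0.91), Phb2 (0.91) and Iba57 (0.91). For Fos alone the 5 highest were Ctnnbl1 (0.93), Mri1 (0.92), Grwd1 (0.92), Plbd2 (0.92) and Agfg2 (0.91). By Spearman's measure 2 of the 8, Id1 and Zbtb22, and 2 of the 5, Grwd1 and Agfg2, were again among the highest. The 9 points are libraries of 3 groups and share their scaling and the old PBS libraries that stood apart, so these values describe likeness only.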

How the data were processed

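RNA of injured mouse muscle was measured in 9 libraries, 3 per group. The NEBNext Ultra kit was used, with paired-end reads. The submitters' processing notes name STAR, featureCounts and mm9, without versions or settings. The authors deposited raw counts per Ensembl gene, whole numbers without normalization, with replicates kept apart, and every column was used. Identifiers were matched to a GENCODE annotation of GRCm38 for symbols and exon lengths, for 54409 of 54532 genes. Its exon positions also gave the exonic bases shared between genes and the exon bases within promoter windows. No coordinates from it are printed, because the builds differ. Promoter windows and their coordinates came from RefSeq (GRCm38.p6), not from the files.

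Pairs of groups were compared on 6 libraries with edgeR 4.0.16 in R 4.3.3 (filterByExpr, TMM, glmQLFit, glmQLFTest, Benjamini-Hochberg over all genes tested, threshold 0.05). A standard error is the absolute log2 fold change over the square root of F. The fit was tested on simulated data. DESeq2 1.42.0 was an alternative, beside its size factors, no filter, at least 10 counts in every library, all 9 libraries in one fit, the replicate number as a block and each library left out. Log2 CPM used a prior count of 2. Levels per length divide CPM by the union of exons.

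The genes and lists were chosen with earlier results of these data known. Named genes are the 10 immediate early genes, and from each other list those called, the 3 of highest mean and the 3 of largest fold change in a comparison. The 8 and 5 genes most alike were named by correlation. Library numbers were not taken as pairs in the main fit. The deviations of libraries with the same number correlated between -0.32 and 0.42, which with 3 libraries per group cannot decide whether they were paired. Replicates differed by more than sampling noise (chi-square per degree of freedom 11.9 to 188).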

Additional observations from a re-analysis of the deposited data

How the results depend on the processing

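The 10 immediate early genes stayed uncalled in all 3 comparisons under every alternative except 1. Without old PBS 3, 1 gene was called between old PBS and young PBS (Atf3), beside 2.52% of all genes, and 1 between old rMETRNL and old PBS (Nr4a1), beside 9.76% of all genes. The direction of Jun, Fos, Fosb and Dusp1 in the comparisons with old PBS held under all alternatives run. The genes called over the whole table moved far more. Between old PBS and young PBS, edgeR called 10 genes, against 354 with no filter, 3 with at least 10 counts in every library, 63 in a fit of all 9 libraries, 265 by DESeq2 and 2 to 401 with 1 library left out. Between old rMETRNL and old PBS it called 17, against 740 with no filter, 1 with at least 10 counts, 71 in the fit of all 9, 357 by DESeq2 and 3 to 1560 with 1 library left out. Between old rMETRNL and young PBS it called 0, against 132 with no filter and 0 to 1 with 1 library left out. The 401 and 1560 were both without old PBS 3. With the replicate block 65 genes were called between old rMETRNL and old PBS, and 11 and 0 in the other comparisons. In the comparisons with old PBS, numbers 1 and 4 each occur in only 1 group. The block thus leaves those contrasts to numbers 2 and 3, without old PBS 4. Between old PBS and young PBS it gave a log2 fold change of 0.10 for Nr4a1 and 0.27 for Dusp1. The block turned Egr1 to -0.15 between old PBS and young PBS and Ier2 to 0.012 between old rMETRNL and old PBS, both uncalled, and moved no other of the 10 across 0. Whether the numbers stand for pairs is not given in the sources used here. The cause of these changes was not tested.

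Leaving out 1 library turned other uncalled differences. Between old PBS and young PBS the log2 fold change ranged over the libraries left out from -0.19 to 0.51 for Junb, -0.25 to 0.29 for Egr1, -0.21 to 0.25 for Ier2 and -0.019 to 0.66 for Nr4a1. Between old rMETRNL and old PBS it ranged from -0.054 to 0.67 for Atf3, -0.29 to 0.41 for Junb, -0.40 to 0.13 for Egr1, -0.24 to 0.22 for Ier2 and -0.34 to 0.052 for Ier3. Between old rMETRNL and young PBS it ranged from -0.13 to 0.059 for Dusp1, -0.12 to 0.10 for Ier2 and -0.27 to 0.0042 for Egr1. Fosb kept its sign but ranged from -1.19 to -0.33, 0.84 to 1.70 and 0.17 to 0.78 in the 3 comparisons, and had the lowest counts of the 10, 22 to 117 per library.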
